A study of Mus musculus with 11 samples.

Results

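Tubulins are the building blocks of microtubules, and 9 tubulin genes were followed in ribosome footprints of mouse cortex after a stroke. They are the alpha tubulin genes Tuba1a, Tuba1b and Tuba4a and the beta tubulin genes Tubb2a, Tubb2b, Tubb3, Tubb4a, Tubb4b and Tubb5. These 9 genes, taken as a named list, are all in the count table of 4338 genes, each represented by its Ensembl transcript with the highest summed count, and all 9 were among the 3835 genes with enough counts to be tested. Their footprints differed little between sham, contralateral and ipsilateral cortex: all 27 intervals of their fold changes lay between 0.679-fold and 1.48-fold. Of the 9 genes, 0 passed the test in any of the 3 comparisons. Few genes passed at all: 0.104% of tested genes in ipsilateral against sham and 0.365% in ipsilateral against contralateral cortex. In contralateral against sham cortex 0% passed, so the count of 0 is no result about tubulins.

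The footprints are short RNA pieces that a ribosome shields from nuclease, recovered from monosomes with an antibody to the large-subunit protein P0. The animals were C57BL6 mice aged 7 to 8 weeks. In 2 groups the right middle cerebral artery was blocked with a filament for 35 min and the brain was reperfused for 3 h, and cortex was taken from the occluded side (ipsilateral, replicates 2, 4, 5 and 6) or the other side (contralateral, replicates 1, 4, 5 and 6). In the sham group (replicates 1, 2 and 5) the arteries were exposed and no filament was inserted, and the side of the sham cortex is not stated. The ipsilateral samples are titled and described as ipsilateral but carry a tissue entry for the contralateral hemisphere, and the title was taken as right. Each replicate number stands for its own day of surgery. It is not stated if 1 animal gave both hemispheres of a day.

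Library totals were 64462 to 256654 counts in sham, 137373 to 571352 in contralateral and 35067 to 137340 in ipsilateral cortex, a 16.3-fold range, and both the shallowest library and the lowest group median were ipsilateral. Total RNA was not analysed here, so a footprint level combines the amount of a transcript with how often it is translated. In whole cortex, fewer cells of a type and less RNA per cell cannot be told apart. General markers of brain cells were looked up, which cannot tell cortex from another brain region. Of 12 neuron markers, 11 were in the table. Their summed level was 12038 to 13743 CPM (the count scaled to a common library size) in sham libraries. It was 11432 to 13934 CPM in contralateral and 10993 to 13459 CPM in ipsilateral libraries. Glial markers were present as well, with all 10 astrocyte, 8 of 11 oligodendrocyte and 8 of 10 microglia markers in the table.

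An alpha and a beta tubulin fold with the help of a chaperonin and dedicated cofactors, join into a dimer, and the dimers polymerise into the hollow microtubules that carry axonal transport and shape neurites. Brain makes several alpha and beta isotypes at once: Tuba1a is the main alpha tubulin of developing neurons, Tubb3 is the classical neuronal beta isotype, Tubb4a is abundant in myelinating oligodendrocytes, and Tubb4b and Tubb5 are made by many cell types. Cells also adjust tubulin synthesis to the pool of free dimers. In this autoregulation, the factor Ttc5 recognises the first residues of a nascent tubulin on the ribosome (methionine-arginine-glutamate-isoleucine in beta, methionine-arginine-glutamate-cysteine in alpha tubulin) and the messenger RNA is then degraded.

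The starts of the coding sequences are shown because they encode this recognition signal. Each line gives the first 36 bases in the GENCODE vM21 transcripts (mouse build mm10), with the first 12, the codons of the signal, in capitals. Tuba1b has the same first 12 bases as Tuba1a, and Tubb4b the same as Tubb3. The Tuba4a start comes from another annotated transcript of that gene, because the model of its representative transcript has no start codon.
Tuba1a: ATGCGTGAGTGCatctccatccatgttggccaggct
Tuba4a: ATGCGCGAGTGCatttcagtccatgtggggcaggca
Tubb2a: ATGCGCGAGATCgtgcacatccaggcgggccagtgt
Tubb2b: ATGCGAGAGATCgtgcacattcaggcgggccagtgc
Tubb3: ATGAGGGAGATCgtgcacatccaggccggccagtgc
Tubb4a: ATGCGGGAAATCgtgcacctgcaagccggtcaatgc
Tubb5: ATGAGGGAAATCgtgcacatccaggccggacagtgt

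The ends of the coding sequences are shown for a different reason: they encode the acidic tails in which isotypes differ most, and they show how much of a gene a footprint can tell apart. Each line gives, for Tuba4a and the beta genes Tubb2a, Tubb2b, Tubb3, Tubb4b and Tubb5, the last 60 bases before the stop codon in the same transcripts, with capitals for bases that lie in no 28-nt stretch shared with another annotated gene.
Tuba4a: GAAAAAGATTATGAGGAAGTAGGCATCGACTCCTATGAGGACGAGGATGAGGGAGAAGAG
Tubb2a: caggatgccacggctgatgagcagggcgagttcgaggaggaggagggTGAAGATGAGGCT
Tubb2b: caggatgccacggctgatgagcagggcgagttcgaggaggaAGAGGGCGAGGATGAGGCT
Tubb3: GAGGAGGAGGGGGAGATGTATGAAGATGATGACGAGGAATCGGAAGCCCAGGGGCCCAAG
Tubb4b: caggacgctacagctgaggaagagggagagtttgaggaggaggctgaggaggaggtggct
Tubb5: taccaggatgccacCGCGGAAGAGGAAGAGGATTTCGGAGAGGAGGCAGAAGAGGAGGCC
Most alpha tubulins end in a tyrosine that is removed and restored in the detyrosination cycle of microtubules, whereas Tuba4a ends in a glutamate codon and is made without that tyrosine. Over these last 60 bases, Tuba4a and Tubb3 are entirely in capitals, and Tubb4b has no capital.

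Over whole coding sequences, sharing was counted by word and not by base, with overlapping words of 28 nt. This is just below the 30 to 50 nt that were selected on a gel. Sharing over longer stretches, which may be lower, was not counted. In 4 genes most words occurred in no other annotated gene: 95.6% in Tubb4a, 94.3% in Tubb5, 93.5% in Tubb3 and 89.9% in Tuba4a. The other 5 genes had few words of their own: 30.1% in Tubb2a, 22.7% in Tubb2b, 19.8% in Tubb4b, 3.54% in Tuba1a and 2.41% in Tuba1b. Of the Tuba1a words 73.7% occurred in Tuba1b and 74.9% in Tuba1c, a further alpha gene in the table, and 22 of the 31 other genes sharing words with Tuba1a are named as pseudogenes or predicted genes. Tubb2a and Tubb2b shared 62.9% of their words, and 67.7% of the Tubb4b words occurred in Tubb4b-ps1, a processed pseudogene that is also in the table. Coding identity was 82.3 to 96.5% between beta genes, 85.1 to 98.4% between alpha genes (Tuba1c included) and 55.9 to 58.3% between an alpha and a beta gene. How reads with several possible origins were assigned is not given in the sources used here, so values of Tuba1a, Tuba1b, Tubb2a, Tubb2b and Tubb4b are uncertain as single genes.

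**Figure D1:**
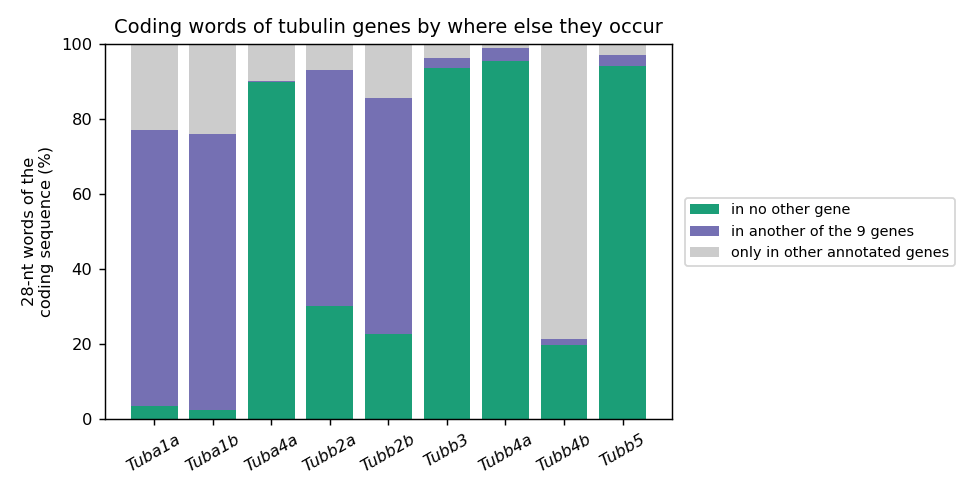
Each bar is the coding sequence of a tubulin gene, split into the percent of its 28-nt words found in no other annotated gene (green), in another of the 9 genes (purple), or only in other annotated genes (grey). Tuba4a, Tubb3, Tubb4a and Tubb5 are almost entirely green, from 89.9 to 95.6%, and Tuba1a and Tuba1b almost not at all.

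The ratio of counts between near copies varied within limits over the 11 libraries. The pseudogene Tubb4b-ps1 had 0.525 to 0.688 times the counts of Tubb4b (median 0.588), Tuba1b had 0.684 to 0.925 times those of Tuba1a, Tuba1c 0.641 to 0.894 times those of Tuba1a, and Tubb2b 0.518 to 0.719 times those of Tubb2a. Genes that share few words ranged as widely, with Tuba4a at 1.12 to 1.58 times the counts of Tuba1a. Tubb4b-ps1 measured 394 ± 34.6 CPM in sham (SD, n = 3), 389 ± 48.3 in contralateral and 386 ± 49.8 in ipsilateral cortex (n = 4 in both). Whether these reads came from the pseudogene or from Tubb4b itself was not tested.

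In the genome (mm10), the near copies among the 9 genes are also neighbours, whereas the pseudogene Tubb4b-ps1 lies on chromosome 5, apart from Tubb4b. Tuba1a (chromosome 15, 98949837 to 98953703, minus strand) lies 15.3 kb from Tuba1b (15, 98931425 to 98934565, minus), and Tubb2a (chromosome 13, 34074274 to 34078007, minus) lies 48.7 kb from Tubb2b (13, 34126748 to 34130466, minus). The others are apart: Tuba4a on chromosome 1 (75214228 to 75219865, minus), Tubb3 on chromosome 8 (123411424 to 123422015, plus), Tubb4b on chromosome 2 (25222160 to 25224702, minus), and Tubb5 (35833921 to 35838306, minus) and Tubb4a (57080066 to 57087782, minus) on chromosome 17. All 9 representative transcripts have 4 exons.

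Tubulin footprints were abundant and steady. Together the 9 genes took 0.860 to 1.03% of the counts of a library, and by mean CPM they ranked between 82 (Tubb2a) and 254 (Tubb4b) among the 3835 tested genes. The SD of log2 CPM over the 11 libraries was 0.12 for Tubb2a, the steadiest, and 0.21 for Tubb4b, with a median of 0.16 over the 9 genes. The median was 0.22 over the 254 tested genes with a mean CPM at least that of Tubb4b, and 0.39 over all tested genes. The lowest count of any of the 9 genes was 16, for Tubb4b in ipsilateral replicate 4, with an exact Poisson interval (95%) of 9.15 to 26.0 that covers counting error only.

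To set genes beside each other, levels were divided by the length of the coding sequence. On this scale of CPM per coding kb, as mean ± SD over all 11 libraries, the order was Tubb2a (1095 ± 87.5), Tubb4a (1045 ± 138), Tuba4a (999 ± 91.9), Tubb5 (850 ± 91.0), Tuba1a (837 ± 71.8), Tuba1b (685 ± 71.4), Tubb2b (649 ± 87.1), Tubb3 (553 ± 69.1) and Tubb4b (495 ± 69.3). Of the 8 steps between neighbours in that order, 2 exceeded the SD of the log2 ratio between libraries. Tuba4a stood above Tubb5 in 10 of 11 libraries and Tuba1a above Tuba1b in 11 of 11, although the latter pair shares most of its words. The other 6 neighbours did not differ beyond their spread, and Tubb2a, Tubb4a and Tuba4a held the first 3 places in each of the 3 groups. The level of Tuba4a rests on the 1430 nt its model annotates as coding, against 1344 nt in the complete transcript whose start is printed above.

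**Figure D2:**
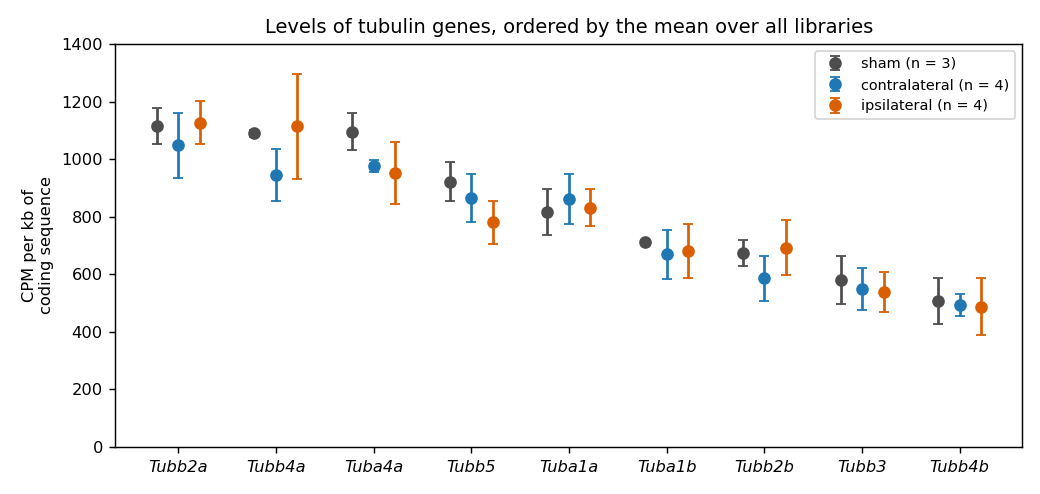
Points are mean footprint levels in CPM per kb of coding sequence for the 9 tubulin genes in sham (n = 3), contralateral (n = 4) and ipsilateral (n = 4) cortex, with bars of 1 SD. Genes are ordered by their mean over all libraries, from Tubb2a at 1095 to Tubb4b at 495, and the groups of a gene lie close together beside the range across genes.

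Ipsilateral and sham cortex were compared to see how the occluded hemisphere differs from cortex without a stroke. Tubulin footprints stayed near their sham level: 4 of the 9 log2 fold changes were above 0 and the median was -0.03, against a median of -0.00 and 50.0% above 0 over all tested genes. The estimates of Tubb5 and Tuba4a lay lowest, at -0.24 ± 0.16 and -0.20 ± 0.15 (log2, SE). By edgeR's quasi-likelihood test with Benjamini-Hochberg adjustment, 0 of the 9 passed, where 0.104% of all tested genes did (4 genes). At an unadjusted p under 0.05 stood 0 of the 9, against 7.74% of all tested genes, and DESeq2 and limma-voom each called 0 of the 9. The groups overlapped for each of the 9 genes, where 7.14% of all tested genes did not overlap.

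Tubb5, a beta isotype of many cell types and the only one of the 9 with 2 transcripts in the table, had the lowest estimate. Its level was 1252, 1127 and 1302 CPM in sham replicates 1, 2 and 5. In the contralateral replicates 1, 4, 5 and 6 it was 1112, 1025, 1284 and 1195 CPM. In the ipsilateral replicates 2, 4, 5 and 6 it was 942, 968, 1101 and 1144 CPM. The ipsilateral values lay mostly below those of sham, but replicate 6 was above the lowest sham library, so the groups overlapped. The group means were 1227 ± 90.3 CPM in sham (SD, n = 3), 1154 ± 111 in contralateral and 1039 ± 99.1 in ipsilateral cortex (n = 4 in both). For ipsilateral against sham the 95% interval of the log2 change ran from -0.56 to 0.07 (edgeR adjusted p = 0.759). Libraries with the same number, and so the same day of surgery, differed by -0.26 and -0.24 (log2, ipsilateral minus sham, days 2 and 5).

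Tuba4a is the alpha isotype encoded without the final tyrosine. In sham replicates 1, 2 and 5 it measured 1570, 1659 and 1472 CPM. The contralateral replicates 1, 4, 5 and 6 gave 1428, 1392, 1405 and 1359 CPM. The ipsilateral replicates 2, 4, 5 and 6 gave 1450, 1378, 1472 and 1136 CPM. Sham was the highest group, and only ipsilateral replicate 5 reached its lowest library. Against sham, the change was -0.20 ± 0.15 in ipsilateral (interval -0.51 to 0.10, edgeR adjusted p = 0.809) and -0.16 ± 0.15 in contralateral cortex (interval -0.46 to 0.13, adjusted p = 0.964).

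The other 7 genes lay between -0.10 (Tubb3, ± 0.17) and 0.04 (Tubb2b, ± 0.17) in ipsilateral against sham cortex, with edgeR adjusted p of at least 0.939. Tuba1a, the alpha tubulin of developing neurons, measured 1033, 1049 and 1228 CPM in the sham replicates 1, 2 and 5 and 1211, 1114, 1163 and 1007 CPM in the ipsilateral replicates 2, 4, 5 and 6. Its ipsilateral libraries fell within the sham range but for replicate 6, and the interval of its log2 change was -0.30 to 0.34. Its contralateral libraries, at 1280, 1002, 1189 and 1186 CPM (replicates 1, 4, 5 and 6), spanned more than the sham range. Tubb3, the neuronal beta isotype, measured 773, 673 and 900 CPM in sham, 647, 704, 875 and 735 CPM in contralateral and 859, 645, 730 and 671 CPM in ipsilateral libraries, in the same order of replicates. The ranges of the 3 groups overlapped widely, although on each of the 3 days with both hemispheres the ipsilateral library was below the contralateral one (log2 differences of -0.12, -0.26 and -0.13 on days 4, 5 and 6). The same held for Tubb5, at -0.08, -0.22 and -0.06. Tubb2a, Tubb2b and Tubb4a went the other way on all 3 days. How many of all tested genes kept a single direction over these days was not counted. Tuba1b ran from 950 to 970 CPM in sham, 788 to 1051 in contralateral and 763 to 1039 in ipsilateral cortex, and Tubb4b from 604 to 801, 597 to 721 and 469 to 766 CPM. Tuba1b libraries were close together in sham and spread to both sides of the sham range in the other groups, and the Tubb4b groups overlapped.

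**Figure D3:**
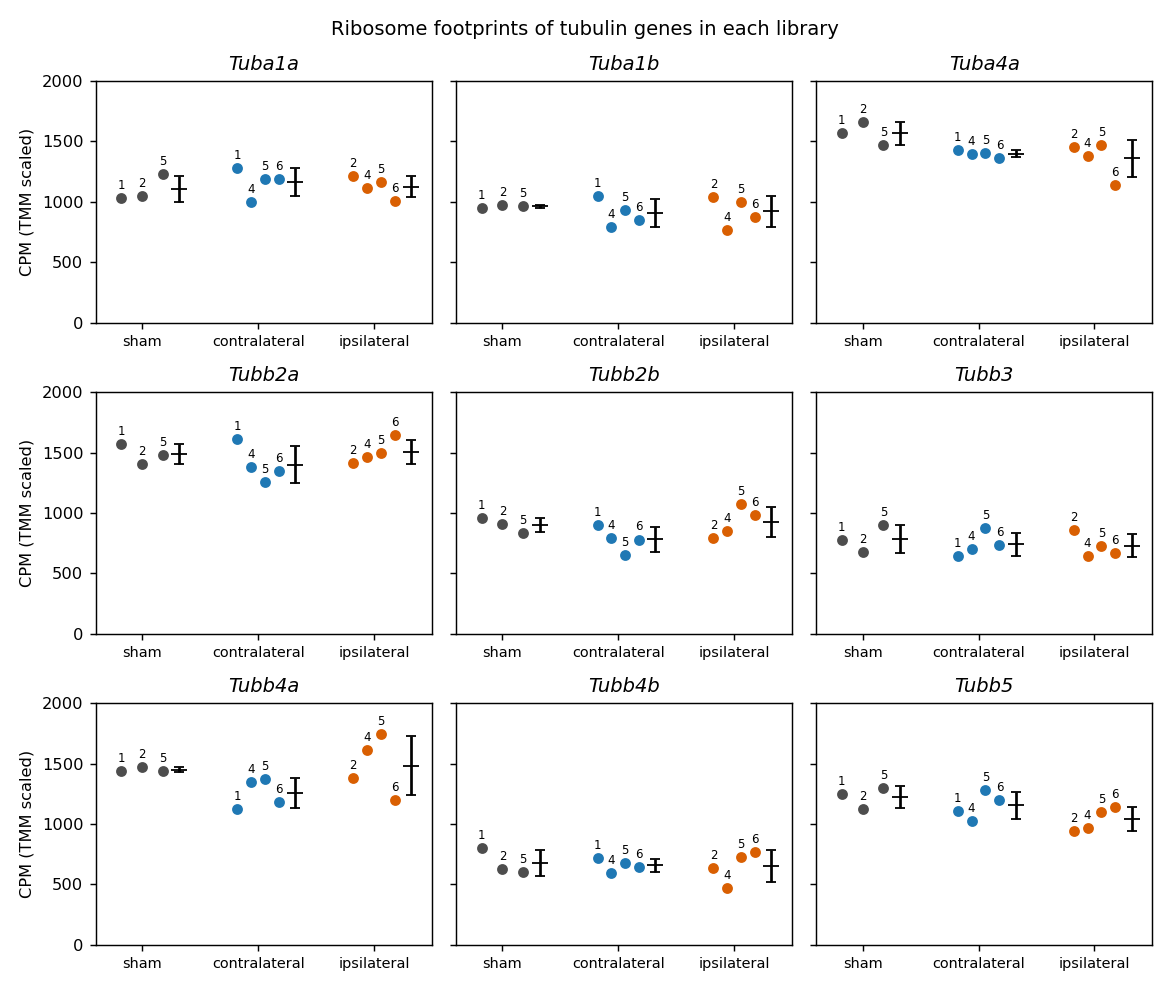
Points are the footprint levels of the 9 tubulin genes in each library, in CPM after TMM scaling on a linear axis from 0, numbered by replicate, with the mean and 1 SD beside each group. Groups overlap for every gene in ipsilateral against sham and against contralateral cortex. In contralateral against sham cortex, Tuba4a and Tubb4a are the 2 genes whose groups do not overlap.

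The comparison of ipsilateral with contralateral cortex sets the occluded hemisphere against the other hemisphere of animals with a stroke. Here 5 of the 9 log2 changes were above 0, with a median of 0.02, against a median of 0.01 and 51.3% above 0 over all tested genes. The highest estimates were those of Tubb2b (0.25 ± 0.15, SE) and Tubb4a (0.23 ± 0.14), and Tubb5 was again the lowest (-0.15 ± 0.14). edgeR called 0 of the 9 (lowest adjusted p = 0.720, Tubb2b), where 0.365% of all tested genes passed, and DESeq2 and limma-voom each called 0. At an unadjusted p under 0.05 stood 0 of the 9, against 7.61% of all tested genes. The groups overlapped for each of the 9, where 4.41% of all tested genes did not overlap. This comparison and the previous share the ipsilateral libraries, so their values are not independent.

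Tubb2b, a beta isotype of developing neurons whose words are mostly shared with Tubb2a, measured 903, 795, 649 and 780 CPM in the contralateral replicates 1, 4, 5 and 6. In the ipsilateral replicates 2, 4, 5 and 6 it measured 792, 851, 1076 and 981 CPM. The sham replicates 1, 2 and 5 gave 958, 908 and 836 CPM. Contralateral replicate 5 was the lowest and ipsilateral replicate 5 the highest library, both from the same day of surgery, and their log2 difference was 0.72. On days 4 and 6 the difference was 0.10 and 0.33. The interval of the fitted change was -0.06 to 0.56. Its near copy Tubb2a had means of 1487 ± 83.3 CPM in sham, 1399 ± 151 in contralateral and 1505 ± 98.7 in ipsilateral cortex, and a change of 0.11 ± 0.14 between the hemispheres (edgeR adjusted p = 0.921). Its same-day differences were 0.08, 0.25 and 0.28 on days 4, 5 and 6.

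Tubb4a, which shares few words with any other gene and is abundant in oligodendrocytes, measured 1441, 1471 and 1440 CPM in the sham replicates 1, 2 and 5. The contralateral replicates 1, 4, 5 and 6 gave 1125, 1346, 1371 and 1186 CPM. The ipsilateral replicates 2, 4, 5 and 6 gave 1383, 1613, 1744 and 1196 CPM. Sham libraries were nearly equal, contralateral libraries all lay below them, and ipsilateral libraries spread to both sides. The ipsilateral against contralateral interval was -0.07 to 0.52 on the log2 scale (edgeR adjusted p = 0.727), and the same-day differences on days 4, 5 and 6 were 0.26, 0.34 and 0.01.

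Markers of oligodendrocytes moved in this comparison. Of 8 tested markers 4 rose, among them the myelin gene Mbp by 1.09 ± 0.22 (log2, SE), from 215 ± 55.6 to 467 ± 134 CPM (edgeR adjusted p = 0.0104), and 8 of 8 estimates were above 0 (median 0.91). These calls rest on few libraries: edgeR called 0 of 8 without contralateral replicate 1, contralateral replicate 6 or ipsilateral replicate 2 (Mbp adjusted p = 0.0945, 0.147 and 0.0973), and 1 of 8 without contralateral replicate 5, without ipsilateral replicate 4 and with the replicate number as a block. It called 2 of 8 without sham replicate 1, sham replicate 5 or contralateral replicate 4. Without the 2 shallowest libraries it called 1 of 8 (Mbp adjusted p = 0.0431), and with only the 2 groups compared 2 of 8. It called 3 of 8 with DESeq2 size factors, with near copies summed and without sham replicate 2. With tubulins left out of the TMM scaling and with no filter on low counts it called 4 of 8. More were called by edgeR without ipsilateral replicate 5 (6 of 8, Mbp adjusted p = 0.00255) and with the mean over listed transcripts (5 of 8). Without ipsilateral replicate 6 it called 4 of 8. limma-voom called 1 of 8, and DESeq2 called 4 of the 6 markers it tested. Against sham, 8 of 8 estimates were above 0 as well (median 0.91), with 0 called by edgeR, 7 at an unadjusted p under 0.05, 2 called by DESeq2 and 0 by limma-voom. Their summed level was 2377 to 2990 CPM in sham, 2350 to 3350 in contralateral and 3142 to 7197 in ipsilateral libraries. The library order differed from that of Tubb4a: the marker sum was highest in ipsilateral replicate 2 (7197 CPM), where Tubb4a measured 1383 CPM, and lowest in replicate 5 (3142 CPM), where Tubb4a was highest at 1744 CPM. Replicates 4 and 6 had marker sums of 5748 and 4310 CPM. Microglia markers lay above 0 in 8 of 8 estimates, with 0 called by edgeR, DESeq2 or limma-voom and 4 at an unadjusted p under 0.05, at 1559 to 2073 CPM in ipsilateral and 1219 to 1445 in contralateral libraries. The part of these cell types in the tubulin levels was not tested.

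**Figure D4:**
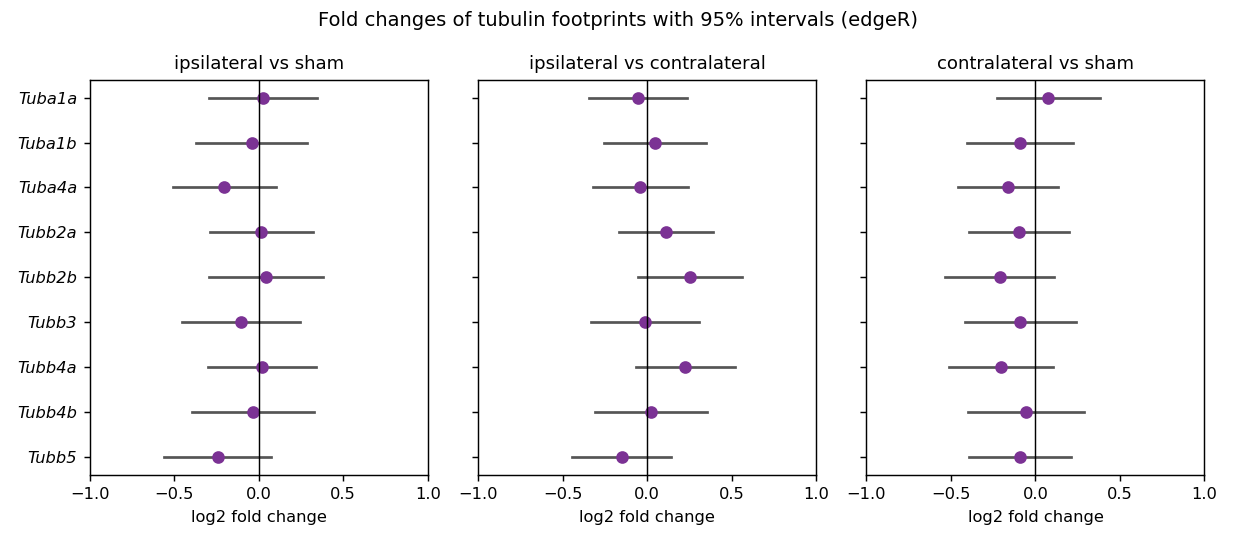
Points are log2 fold changes of the 9 tubulin genes in the 3 comparisons, fitted with edgeR over all 11 libraries, and lines are their 95% intervals. Every interval crosses 0 and all lie between -0.56 and 0.56, with Tubb5 lowest in both ipsilateral comparisons and Tubb2b and Tubb4a highest against contralateral cortex.

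The comparison of contralateral with sham cortex asks whether the hemisphere opposite the occlusion differs from cortex without a stroke. Estimates were mostly below 0: 1 of the 9 was above 0 (Tuba1a, 0.08 ± 0.15, SE), and the median was -0.09, against -0.00 and 49.9% above 0 over all tested genes. Tubb2b (-0.21 ± 0.16) and Tubb4a (-0.21 ± 0.15) were lowest. edgeR called 0 of the 9 (lowest adjusted p = 0.953), and 0% of all tested genes. DESeq2 and limma-voom called 0 of the 9, and 0 stood at an unadjusted p under 0.05, against 5.74% of all tested genes. In 2 of the 9, Tuba4a and Tubb4a, every contralateral library lay below every sham library, where 7.61% of all tested genes did not overlap. The interval of the log2 change was -0.46 to 0.13 for Tuba4a and -0.51 to 0.10 for Tubb4a. Among cell type markers in this comparison, 3 of 11 neuron estimates were above 0 (median -0.14), 10 of 10 astrocyte estimates (median 0.21), 7 of 8 microglia estimates (median 0.27) and 5 of 8 oligodendrocyte estimates (median 0.03). edgeR, DESeq2 and limma-voom called 0 of these markers, and 1 astrocyte and 1 microglia marker stood at an unadjusted p under 0.05. The summed astrocyte markers were 8546 to 10985 CPM in sham and 9633 to 13987 in contralateral libraries, and the microglia markers 908 to 1202 and 1219 to 1445 CPM. Their part in the tubulin values was not tested. The sham libraries are shared with the first comparison and the contralateral libraries with the other.

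The genes were also summed into alpha and beta pools. These sums are descriptions without a test, given because reads may be divided among copies. The 3 alpha genes summed to 3633 ± 69.6 CPM in sham (SD, n = 3), 3465 ± 243 in contralateral and 3403 ± 322 in ipsilateral cortex (n = 4 in both). The 6 beta genes summed to 6524 ± 295, 5991 ± 141 and 6329 ± 408 CPM. All contralateral beta sums (5850 to 6117 CPM) lay below all sham sums (6214 to 6800 CPM), and the ipsilateral sums (6012 to 6878 CPM) overlapped both. Of all tested genes, 7.61% did not overlap in CPM between contralateral and sham cortex. That figure is for single genes, and none was computed for sums of genes. The ratio of alpha to beta level per coding kb, which leaves Tuba1c out, was 0.538 ± 0.0333 in sham, 0.558 ± 0.0286 in contralateral and 0.521 ± 0.0565 in ipsilateral cortex, so the groups differed by less than the spread within the ipsilateral group. For the 4 genes with mostly their own words (Tuba4a, Tubb3, Tubb4a and Tubb5), the sum was 5027 ± 92.0 CPM in sham, 4547 ± 270 in contralateral and 4608 ± 368 in ipsilateral cortex. For the other 5 genes, which share most of their words, it was 5131 ± 178, 4909 ± 448 and 5123 ± 344 CPM, so the ipsilateral mean was close to that of sham.

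Within the beta pool, the share of Tubb5 separated ipsilateral from sham libraries, a measure picked out after the values were seen. Per coding kb it made up 18.5, 18.2 and 19.9% of the beta level in the sham replicates 1, 2 and 5 and 15.7, 16.1, 16.0 and 17.9% in the ipsilateral replicates 2, 4, 5 and 6. Every ipsilateral share was thus below every sham share. Of all tested genes, 7.14% did not overlap in CPM between these 2 groups. That figure is for the CPM of single genes, and none was computed for shares of a pool. The contralateral shares of 18.2, 17.6, 21.1 and 20.4% (replicates 1, 4, 5 and 6) overlapped both groups. By their means, Tubb2a and Tubb4a were the largest parts of the beta pool, with 20.5 to 26.3% and 18.4 to 26.9% over all libraries, but the Tubb5 share exceeded that of Tubb2a in contralateral replicate 5 and that of Tubb4a in contralateral replicate 6. Tuba4a was the largest part of the 3-gene alpha pool, with 36.3 to 43.7%.

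**Figure D5:**
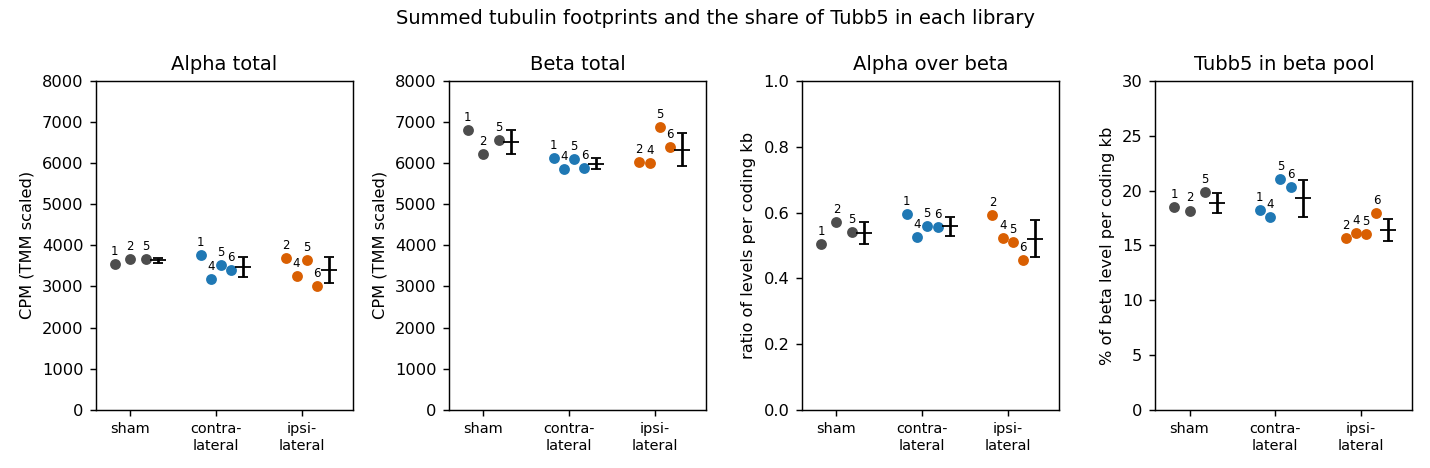
Points are libraries, numbered by replicate, with the group mean and 1 SD: the summed alpha and beta footprints in CPM, the ratio of alpha to beta level per coding kb, and the percent of the beta level held by Tubb5. Contralateral beta sums (5850 to 6117 CPM) lie below those of sham (6214 to 6800 CPM), and ipsilateral Tubb5 shares (15.7 to 17.9%) lie below those of sham (18.2 to 19.9%). The Tubb5 share was picked out after the values were seen.

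The other genes of the tubulin pathway were examined as lists. In each of the 3 comparisons, edgeR, DESeq2 and limma-voom called 0 genes of every one of these lists. At an unadjusted p under 0.05 stood Clip2 in ipsilateral against sham, Map1s and Map7d1 in ipsilateral against contralateral and Map7d1 in contralateral against sham cortex, all proteins that bind microtubules and all from the list of 26 lattice and end binding proteins. These are 1, 2 and 1 of its 21 tested genes, where 7.74%, 7.61% and 5.74% of all tested genes stood under that p, so they are no result about the list. These genes are named after their values were seen. The other lists had 0 such genes. Of the other tubulins, 1 of 11 was in the table: Tuba1c measured 834 ± 58.1 CPM in sham, 817 ± 80.7 in contralateral and 857 ± 170 in ipsilateral cortex, and its changes were 0.00 ± 0.17 for ipsilateral against sham and 0.04 ± 0.16 against contralateral. Of 22 genes of tubulin folding, 13 were tested, and 6 of them lay above 0 in ipsilateral against sham cortex (median -0.01). The chaperonin subunits Cct8 and Tcp1, the most abundant of that list, changed by -0.02 ± 0.23 and -0.02 ± 0.28. Of the autoregulation factors, 1 of 3 was in the table: Cnot1, the scaffold of the complex that shortens poly(A) tails, measured 173 ± 94.8 CPM in sham and 108 ± 36.6 in ipsilateral cortex (-0.51 ± 0.35, edgeR adjusted p = 0.800). Ttc5 itself was not analysed here.

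Further lists hold proteins that act on the finished tubulin or microtubule. Of 17 modifying enzymes 4 were tested, among them Agtpbp1, which trims glutamates from tubulin tails, at 192 ± 27.5 CPM in sham and 136 ± 15.3 in ipsilateral cortex (-0.42 ± 0.26, edgeR adjusted p = 0.746). Ttll7, which adds glutamates to them, changed by -0.14 ± 0.26. Of 9 stathmins and dimer binders 7 were tested, with a median of -0.21 in ipsilateral against sham cortex and 2 of 7 above 0. Stmn1, which sequesters tubulin dimers, changed by -0.23 ± 0.17, and Dpysl2, which binds dimers in growing axons, by 0.14 ± 0.16. Of 26 lattice and end binding proteins 21 were tested, with 11 of 21 above 0 (median 0.01) in ipsilateral against sham, 17 of 21 (0.09) against contralateral, and 7 of 21 (-0.15) in contralateral against sham cortex. Their most abundant members, the axonal and dendritic Map1b and Map1a, changed by 0.01 ± 0.14 and 0.02 ± 0.15 in ipsilateral against sham. Of 6 severing proteins 2 were tested. Fign had a fitted change of 3.06 ± 1.69 (edgeR adjusted p = 0.741), with 373 ± 379 CPM in ipsilateral against 46.7 ± 18.5 CPM in sham cortex, a spread among ipsilateral libraries as large as their mean. Contralateral cortex had 332 ± 443 CPM and a change of 3.06 ± 1.59 against sham (edgeR adjusted p = 0.928). Between the hemispheres the Fign estimate was 0.01 ± 1.15.

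Outside the tubulin family, the genes whose profile over the 11 libraries was most like the mean of the 9 tubulin genes were Mapt (Pearson r = 0.842), Aldoa (0.820), Atp5f1 (0.807), Pkm (0.788) and Uba1 (0.767), among 1119 genes with a mean of at least 200 CPM. Mapt encodes the microtubule binding protein tau, Aldoa and Pkm are glycolytic enzymes, Atp5f1 is part of the ATP synthase, and Uba1 activates ubiquitin. Without ipsilateral replicate 4, the shallowest library, the values were 0.790, 0.764, 0.796, 0.714 and 0.744, in the same order, and 3 of the 5 stayed among the first 5. These correlations describe libraries that share depth and scaling.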

How the data were processed

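Ribosome-protected fragments of mouse cortex were analysed in 11 libraries. The deposited table holds whole-number counts per Ensembl transcript. Per the submitters' processing notes, Bowtie2, edgeR and build mm10 were used; versions, counting tool, annotation release, strand use and filters on reads are not given in the sources used. Of 9784 transcripts, 9736 matched GENCODE vM21, and the other 48 held 0.306% of counts and were left out. The lowest summed count of a listed transcript was 101, and genes not listed were not analysed here. For each of the 4338 genes the transcript with the most counts in all was kept.

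Tests used edgeR 4.0.16 under R 4.3.3 (filterByExpr with a minimum count of 10, TMM scaling, robust quasi-likelihood fit of all 11 libraries by group, Benjamini-Hochberg adjustment over 3835 genes, threshold 0.05). Standard errors and 95% intervals were derived from the F statistic and its degrees of freedom. The biological coefficient of variation was 0.171. CPM values were computed here from the TMM-scaled totals of the tested genes, and log2 CPM with a prior count of 2. P-values measure the spread between libraries of a group, each from a different day of surgery. The pairing by day was left out of this fit. Between the hemispheres, its p-values therefore do not measure the spread of same-day differences. The fit was tested on simulated data with known changes. Libraries of the same day pair across groups, per the submitters' design text. Their deviations from group means correlated at -0.139 to 0.224 across genes (7 pairs, median 0.131), against -0.254 to 0.259 for the 33 other pairs (median -0.0301).

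Alternatives were DESeq2 1.42.0, limma-voom (limma 3.58.1), other scalings, no filter, the replicate number as a block, fewer libraries, only the groups compared, the mean over the transcripts of a gene, and summed near copies. Named genes were the 9 tubulins, from each list the called genes and the 2 with the highest mean CPM, and the 5 genes most like the tubulin mean. The members and lists were chosen with earlier results of these data known. Sequences come from GENCODE vM21 transcripts. The coding ends of some genes and the values of 1 marker gene on its own are not reported here.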

Additional observations from a re-analysis of the deposited data

How the results depend on the processing

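Under every alternative that was run, 0 of the 9 tubulin genes passed in each of the 3 comparisons. Over the alternatives, log2 changes ran from -0.30 to 0.12 for ipsilateral against sham (lowest adjusted p = 0.656), from -0.21 to 0.34 for ipsilateral against contralateral (0.594) and from -0.28 to 0.17 for contralateral against sham (0.764). With the replicate number as a block, the pairing by day changed no call: 0 tubulin genes passed, Tubb2b changed by 0.34 between the hemispheres (edgeR adjusted p = 0.632) and Tubb5 by -0.24 against sham (0.849). The counts of all genes called were 4, 14 and 0 in these comparisons and 3, 11 and 0 with the block. DESeq2 called 10, 14 and 2 genes and limma-voom 5, 10 and 0. The counts were 0, 10 and 0 without sham replicate 1, 2, 11 and 3 without sham replicate 5, and 22, 26 and 0 without ipsilateral replicate 5, and 4, 7 and 0 without the 2 shallowest libraries. Over all alternatives they ranged from 0 to 22, 3 to 26 and 0 to 3. Between hemispheres the count was 3 without ipsilateral replicate 2, 9 without ipsilateral replicate 4, and 5, 9 and 4 without contralateral replicates 1, 4 and 6. Other scalings moved the median of all genes by at most 0.016 on the log2 scale.

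Estimates near 0 changed sign, none with a call, and the cause was not tested. For ipsilateral against sham, limma-voom gave -0.0074 for Tubb4a. The block gave 0.087 for Tuba1b and 0.095 for Tubb4b. Without the 2 shallowest libraries the values were -0.0096 for Tuba1a, 0.013 for Tuba1b, -0.015 for Tubb2a, -0.013 for Tubb4a and 0.00099 for Tubb4b, and with near copies summed Tuba1a had -0.0085. Against contralateral, Tubb3 had 0.0080 without the 2 shallowest libraries and Tuba1b -0.020 with copies summed. For contralateral against sham, the block gave 0.054 for Tuba1b and 0.0025 for Tubb4b, and summed copies 0.011 for Tuba1b. Leaving out 1 library at a time, the ranges that crossed 0 were, for ipsilateral against sham, -0.034 to 0.11 (Tuba1a), -0.11 to 0.015 (Tuba1b), -0.039 to 0.055 (Tubb2a), -0.040 to 0.12 (Tubb2b), -0.22 to 0.0072 (Tubb3), -0.078 to 0.11 (Tubb4a) and -0.13 to 0.12 (Tubb4b). Against contralateral they were -0.12 to 0.0013 (Tuba1a), -0.035 to 0.11 (Tuba1b), -0.097 to 0.042 (Tuba4a), -0.14 to 0.064 (Tubb3) and -0.062 to 0.10 (Tubb4b). For contralateral against sham they were -0.17 to 0.023 (Tubb3) and -0.15 to 0.12 (Tubb4b).

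With the mean over listed transcripts, which lowers the library totals and so raises genes with a single listed transcript, the alpha sums were 4037, 3848 and 3780 CPM (sham, contralateral, ipsilateral), the contralateral beta sum 6186 CPM, the alpha to beta ratio 0.579 in sham and 0.601 in contralateral cortex, and the 9 genes 1.06% of sham counts. Leaving out a library moved the sham alpha sum between 3550 and 3649 CPM. Per kb of whole transcript, the order of levels changed to Tubb2a 908, Tuba4a 686, Tuba1a 628, Tubb4a 624.97, Tuba1b 531, Tubb5 427, Tubb4b 413, Tubb3 399.7 and Tubb2b 397 CPM. Depth limits the ipsilateral group most.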
